A study of Mus musculus with 12 samples.

Results

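The interferon regulatory factors measured here were Irf1, Irf2, Irf3, Irf4, Irf5, Irf7, Irf8 and Irf9, which were taken by name as 8 of the 55536 genes that a complete table lists. They were followed in cultures of mouse OPCs (oligodendrocyte precursor cells, which proliferate and mature into the cells that form myelin). Cells from pooled brains of pups at postnatal day 4 to 6, labelled as Sox10GFP+, were left untreated (Ctr), or received for 48 h either 1 µM of dexamethasone (Dexa, a synthetic glucocorticoid) or 100 ng/ml of IFN-γ (IFNg). Each group held 4 replicates from different litters, all grown with PDGFaa and bFGF. Per the labels, cells were sorted on the Sox10-driven GFP or taken with CD140a beads, without saying which was used for which library, and every sample carries the mouse model entry EAE although no immunization of the pups is described. The reporter, turned on by a Sox10-driven Cre, marks the whole oligodendrocyte lineage and not precursors alone.

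Interferon regulatory factors share a DNA-binding domain that reads GAAA repeats, known as the interferon-stimulated response element (ISRE). In the textbook scheme, IFN-γ binds its receptor, the kinases JAK1 and JAK2 are activated, and the signal reaches the gamma-activated site (GAS) in the promoters of first-wave genes such as Irf1, whose product then acts on a second wave. IRF9 is the DNA-binding subunit of the ISGF3 complex, IRF3 and IRF7 are the factors that nucleic acid sensors activate to make type I interferon, IRF2 is known as a competitor of IRF1, and IRF4, IRF5 and IRF8 are known mainly from immune cells.

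The promoter stretches of the genes described most closely are shown first. Transcripts of the annotated Irf1 starts took different shares of reads in the groups, and the motifs of the IFN-γ pathway can be read in the stretches. All 8 genes had a RefSeq promoter window, 11 windows in all, and the 250 bases before each start were searched on both strands for the GAS letters TTCNNNGAA, which read the same on both strands, and for the ISRE core letters (GAAA, any 2 bases, GAAA). Capitals mark the matches, and bases that the annotation gives to exons of coding genes were left out. The Irf1 stretches were chr11:53769764-53770013 before the first start and chr11:53770279-53770472 before the second start, both on the plus strand of GRCm38.p6.
Irf1, first start: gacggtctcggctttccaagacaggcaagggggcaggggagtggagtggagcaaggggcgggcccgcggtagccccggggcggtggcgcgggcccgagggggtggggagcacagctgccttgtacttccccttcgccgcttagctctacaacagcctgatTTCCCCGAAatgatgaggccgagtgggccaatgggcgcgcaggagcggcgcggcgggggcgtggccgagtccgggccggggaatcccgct
Irf1, second start: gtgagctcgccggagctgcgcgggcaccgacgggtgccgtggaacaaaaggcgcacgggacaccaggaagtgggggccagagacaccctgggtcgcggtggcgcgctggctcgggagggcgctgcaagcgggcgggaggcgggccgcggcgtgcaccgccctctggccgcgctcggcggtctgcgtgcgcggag
The stretch of Irf8 was chr8:120736108-120736357 and that of Irf2 was chr8:46739495-46739731, also on the plus strand.
Irf8: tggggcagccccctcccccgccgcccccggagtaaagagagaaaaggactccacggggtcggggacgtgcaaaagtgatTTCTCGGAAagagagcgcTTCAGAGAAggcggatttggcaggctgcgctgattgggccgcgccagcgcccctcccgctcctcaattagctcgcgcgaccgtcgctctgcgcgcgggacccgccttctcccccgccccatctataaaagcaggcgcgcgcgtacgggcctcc
Irf2: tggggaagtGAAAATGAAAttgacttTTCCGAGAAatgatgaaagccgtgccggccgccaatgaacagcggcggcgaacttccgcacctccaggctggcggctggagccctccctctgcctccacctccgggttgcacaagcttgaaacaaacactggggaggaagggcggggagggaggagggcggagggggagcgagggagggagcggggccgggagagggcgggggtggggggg
The GAS letters stood 90 bases before the first Irf1 start (TTCCCCGAA), at 171 bases (TTCTCGGAA) and 153 bases (TTCAGAGAA) before the Irf8 start, and 224 bases before the Irf2 start (TTCCGAGAA). The ISRE core letters were found only in the Irf2 window, at 241 bases before the start (GAAAATGAAA), in a window that overlaps an exon of the non-coding gene Gm16675 on the other strand. The windows of Irf3, Irf4, Irf5, Irf7 and Irf9, the second window of Irf1 and the second window of Irf8 held neither set of letters. The GAS letters were held by 3 of the 11 Irf windows and the ISRE core letters by 1. Over all 32851 promoter windows of this length, 7.02% held the GAS letters and 2.98% the ISRE core letters. The matches are given as a description and were not tested against these shares.

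RNA depleted of ribosomal RNA was sequenced, and estimated counts per transcript were summed per gene. Reads in genes ranged from 19209059 to 52074655 over the 11 complete tables. The table of Dexa replicate 3 was cut short at 33.7% of the transcripts, lists only Irf1, Irf4 and Irf9 whole, and entered no test over all genes, which left 3 Dexa libraries. Markers of OPCs were high in every library, with Pdgfra at 83457 ± 28967 and Ptprz1 at 59889 ± 5474 normalized counts in Ctr (SD, n = 4). Over the 10 OPC markers the summed level was 831 to 1957 TPM (a level scaled by library and transcript length) in Ctr and 696 to 1492 in IFNg, and the mean was lower in IFNg for 9 of 10. DESeq2 called 1 of 10 lower, C1ql1, which went from 1452 ± 708 to 317 ± 220 normalized counts (adjusted p 0.00914, edgeR 0.0929). Over all genes tested, DESeq2 called 12.8% in either direction, of which most were higher (8.02% of all genes). Astrocyte genes were present as well, with a summed level of 119 to 313 TPM in Ctr, 268 to 473 in Dexa and 258 to 427 in IFNg, and DESeq2 called 2 of 7 of them higher in IFNg than in Ctr, where 8.02% of all genes were. Gfap, the filament gene of reactive astrocytes, went from 20.2 ± 15.01 to 288 ± 94.1 normalized counts (adjusted p 3.98e-09, edgeR 0.00333) and Aldoc from 9316 ± 3798 to 16020 ± 971 (0.0399, not called by edgeR at 0.0985). The mean was higher in IFNg than in Ctr for 5 of the 7 and lower for 2, Aqp4 (763 to 377) and Gja1 (1060 to 833). In Dexa, Gfap stood at 75.8 ± 59.5 and Aldoc at 19548 ± 4426. The 14 microglia markers, a cell type in which Irf5 and Irf8 are known to be abundant, summed to 0.714 to 1.53 TPM in Ctr, to 0.954 to 1.40 in Dexa and to 1.26 to 2.10 in IFNg, with 12 of 14 under a mean of 10 normalized counts in every group. Their mean normalized count was higher in IFNg than in Ctr for 11 of 14 and lower for 3: C1qa went from 0.58 to 2.87 and P2ry12 from 17.4 to 22.2, Cd68 from 42.1 to 38.7, and Tyrobp and Spi1 (encoding PU.1, a partner of IRF4 and IRF8) were at 0 in every IFNg library. DESeq2 tested 3 of 14 and called 0, with 0 at an unadjusted p under 0.05 and 0 in edgeR. The 7 lymphocyte markers each stayed under a mean of 10 normalized counts in all 3 groups. In cultures measured in bulk, fewer cells of a type and less RNA per cell cannot be told apart, and the part of other cell types in the results was not tested beyond these levels.

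IFN-γ raised 5 of the 7 Irf genes that could be tested: Irf8, Irf1, Irf9, Irf7 and Irf2, in that order of fold change. Irf3 and Irf5 did not pass the test, and Irf4 was too low to be tested. Over all 17919 genes tested with DESeq2, 8.02% were called higher and 12.8% were called in either direction at an adjusted p under 0.05 (edgeR called 6.06% higher and 8.44% in either direction, with the same 5 of 7 Irf genes). For these 5 genes the IFNg libraries did not overlap the Ctr libraries, which was so in this direction for 8.66% of all genes. Values below are normalized counts, which compare one gene between libraries and not genes with each other.

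Irf1, the first-wave factor of the IFN-γ pathway (chr11:53770014-53778374, plus strand), stood at 354.3, 357.5, 409.8 and 335.5 in Ctr replicates 1 to 4, at 296.8, 382.3 and 312.7 in Dexa replicates 1, 2 and 4, and at 22381, 24482, 24316 and 23248 in IFNg replicates 1 to 4. All 4 IFNg libraries lay far above all others, and the Ctr and Dexa libraries overlapped. The rise was 64.7-fold, a log2 fold change of 6.01 ± 0.10 (SE), with an adjusted p too small to be stored in DESeq2 (Wald statistic 59.6) and of 2.57e-10 in edgeR. Within pairs of the same replicate number the rise lay between 59.3-fold and 69.3-fold.

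Irf8 (chr8:120736358-120756694, plus strand), known as a factor of the myeloid lineage, went from 56.9, 62.6, 73.0 and 59.7 in Ctr replicates 1 to 4 to 7781, 7026, 6602 and 6517 in IFNg replicates 1 to 4. The Dexa libraries held 52.9, 57.3 and 41.9. Again the IFNg libraries stood apart from all others, while Ctr and Dexa overlapped. The rise was 110-fold (log2 fold change 6.78 ± 0.13, adjusted p too small to be stored in DESeq2, 2.96e-10 in edgeR), and the pairs gave 90.4-fold to 137-fold. Of the genes tested, 110 had a larger log2 fold change than Irf8. The summed level of the 14 microglia markers was 0.714 to 1.53 TPM in Ctr and 1.26 to 2.10 in the IFNg libraries, and their part in the rise was not tested.

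Irf9, the DNA-binding subunit of ISGF3 (chr14:55603571-55610030, plus strand), stood at 215.7, 213.1, 220.4 and 205.2 in Ctr, with a mean of 213.6 ± 6.35 (SD, n = 4), and at 3687 ± 568 in IFNg. The 4 IFNg libraries held 2896, 3665, 4012 and 4175. Replicate 1 was the lowest of them and still 13.4-fold above its Ctr partner, against 20.3-fold in the pair with the largest ratio. The fitted rise was 17.2-fold (log2 fold change 4.11 ± 0.15, DESeq2 adjusted p 4.33e-170, edgeR 7.23e-09).

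Irf7, the factor of amplified type I interferon responses (chr7:141262706-141266481, minus strand), rose from 50.5, 53.3, 80.6 and 48.9 in Ctr replicates 1 to 4 to 356.7, 576.7, 854.4 and 855.0 in IFNg. The pairs gave 7.07-fold to 17.5-fold, and IFNg replicate 1 was lowest here as for Irf9. The fitted rise was 11.3-fold (log2 fold change 3.50 ± 0.30, DESeq2 adjusted p 1.83e-29, edgeR 1.85e-05).

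Irf2, the competitor of IRF1 (chr8:46739732-46847458, plus strand), rose least, from 182.7, 203.8, 223.9 and 228.0 in Ctr to 489.8, 406.8, 462.7 and 535.3 in IFNg. The groups did not overlap, and each pair rose by 1.996-fold to 2.68-fold. The fitted rise was 2.26-fold (log2 fold change 1.17 ± 0.12, DESeq2 adjusted p 2.48e-19, edgeR 1.36e-04).

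Irf3 (chr7:44997648-45002848, plus strand), the factor that is present before stimulation and activated by phosphorylation, held 1067, 858.7, 777.6 and 749.3 in Ctr and 965.8, 687.2, 733.1 and 636.8 in IFNg. The groups overlapped, although each IFNg library was below its Ctr partner, at 0.8003 to 0.943 of it. The log2 fold change was -0.19 ± 0.19, with a 95% interval of -0.57 to 0.19 and a DESeq2 adjusted p of 0.639. With the replicate number as a block, it was -0.20 ± 0.09 in DESeq2 (adjusted p 0.0833; edgeR 0.0570), still outside the threshold. Over its 17 alternatives the adjusted p ranged from 0.0570 to 0.855.

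Irf5 (chr6:29526625-29541871, plus strand), known from Toll-like receptor signalling in myeloid cells, was near the limit of the filter. Its estimated counts were 15, 11, 18 and 8 in Ctr and 15, 14, 8 and 9 in IFNg, and the groups overlapped. Its log2 fold change was 0.25 ± 0.41 (DESeq2 adjusted p 0.805), with a 95% interval of -0.56 to 1.07. Irf5 overlaps Tnpo3 on the opposite strand by 1045 bases, and Tnpo3 averaged 6387 estimated counts in Ctr. The strand setting of the counting is not stated, so some of the few Irf5 reads may belong to Tnpo3. Irf4 (chr13:30749226-30766976, plus strand), a factor of lymphocytes, had 7, 3, 1 and 1 estimated counts in Ctr, 3, 4, 0 and 3 in Dexa replicates 1 to 4 and 0, 0, 0 and 2 in IFNg. These few reads allow no comparison.

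**Figure D1:**
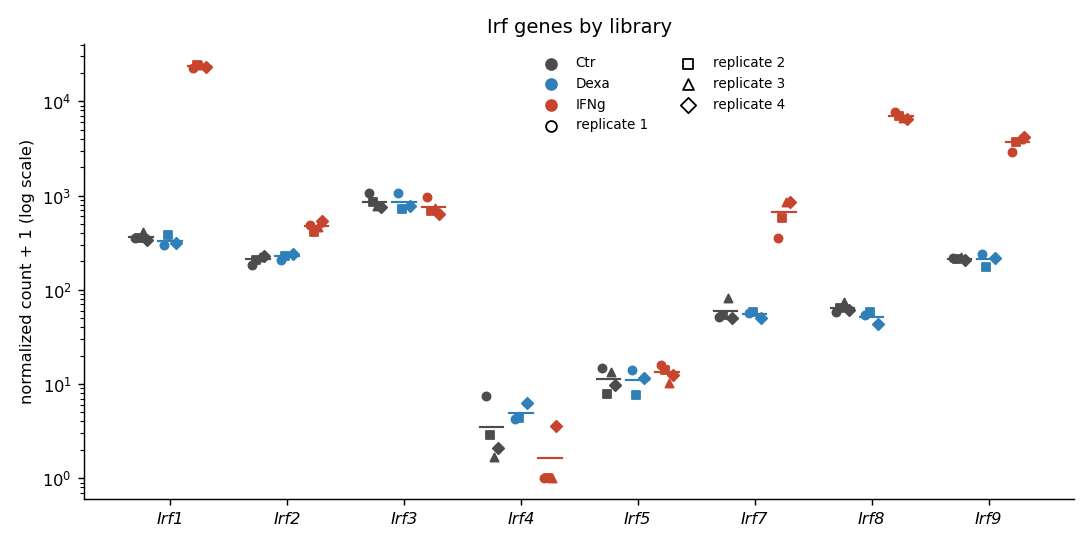
Normalized count plus 1 (log axis) of each Irf gene in each of the 11 complete libraries, with a marker shape per replicate number, a colour per group and a line at each group mean. IFNg libraries stand apart for Irf1, Irf2, Irf7, Irf8 and Irf9 and overlap the others for Irf3 and Irf5, while Irf4 stays under 7 normalized counts everywhere.

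No change of an Irf gene was detected with dexamethasone: DESeq2 called 0 of 7 and edgeR 0 of 7. At an unadjusted p under 0.05, DESeq2 had 0 and edgeR 1, Irf8 at 0.0488. Over all genes, DESeq2 called 0.547% and edgeR 0.123% in Dexa against Ctr. The largest difference among the 7 was that of Irf8, at -0.29 ± 0.19 on the log2 scale with an unadjusted DESeq2 p of 0.121, and each of the 3 Dexa libraries was below its Ctr partner, at 0.702 to 0.929 of it. Irf1 differed by -0.13 ± 0.12, with a 95% interval of -0.37 to 0.10, and Irf2 by 0.10 ± 0.14, with an interval of -0.17 to 0.38. For all 7 genes the Dexa libraries overlapped those of Ctr, where 4.26% of all genes did not. The interval was widest for Irf5, from -0.99 to 0.85.

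The remaining genes held these normalized counts in Dexa replicates 1, 2 and 4. Irf2 was at 208.3, 229.9 and 239.4, each above its Ctr partner by 1.05-fold to 1.14-fold. Irf9 was at 236.4, 174.3 and 214.9, above the Ctr partner in 2 of 3 pairs. Irf7 was at 56.1, 56.4 and 48.9, and Irf3 at 1062, 722.4 and 775.7, with replicate 1 the highest as in the other groups.

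The Dexa libraries themselves differed from Ctr in genes known to answer glucocorticoids. Per1 rose from 357 ± 43.1 to 1159 ± 60.9 normalized counts (SD, n = 4 Ctr and n = 3 Dexa), a log2 fold change of 1.70 ± 0.16 with a DESeq2 adjusted p of 4.32e-23. Fkbp5 (1.47 ± 0.20, adjusted p 3.99e-10) and Zbtb16 (1.35 ± 0.15, adjusted p 8.14e-17) rose too, and the difference of Tsc22d3, at 0.90 ± 0.26, had an adjusted p of 0.0884. Tsc22d3 was called in 4 of 17 alternatives, the replicate block among them.

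Against Dexa in place of Ctr, IFNg libraries again had the same 5 of 7 Irf genes called higher, where 7.66% of all genes were called higher. The log2 fold changes were 7.07 ± 0.17 for Irf8, 6.15 ± 0.11 for Irf1, 4.15 ± 0.16 for Irf9, 3.61 ± 0.33 for Irf7 and 1.07 ± 0.14 for Irf2. Irf3 (-0.18 ± 0.21) and Irf5 (0.32 ± 0.48) were not called. These values share the IFNg libraries with the comparison to Ctr and are not a second experiment. With the replicate block, which called 29.2% of all genes in IFNg against Ctr, 2.57% in Dexa against Ctr and 31.6% in IFNg against Dexa in DESeq2 (31.3%, 1.57% and 33.7% in edgeR), the Irf counts were again 5, 0 and 5 of 7.

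**Figure D2:**
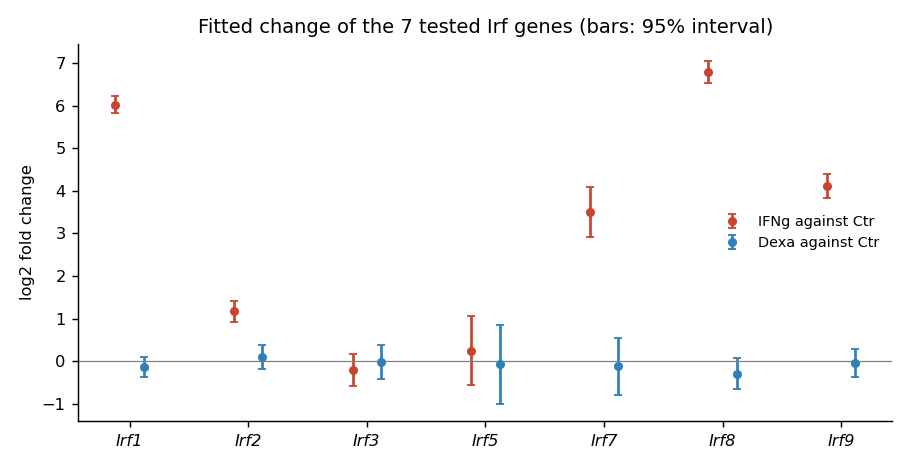
Fitted log2 fold change of the 7 tested Irf genes in IFNg against Ctr (red) and Dexa against Ctr (blue), with 95% intervals. The red points run from -0.19 for Irf3 to 6.78 for Irf8, and each blue interval includes 0.

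The order of the Irf genes by level differed between Ctr and IFNg cultures. Levels of different genes were compared per length, in TPM. In Ctr, Irf3 led with 16.4 ± 2.05 TPM (SD, n = 4) and made up 63.2% ± 4.74 of the TPM summed over the 8 genes. Of the Irf3 level, 8.70 ± 1.34 TPM fell to transcript models annotated with a retained intron, which have no coding bases. Irf1 (4.10 ± 0.56), Irf2 (2.55 ± 0.80) and Irf9 (1.93 ± 0.25) followed, with Irf1 and Irf2 overlapping in range, as did Irf2 and Irf9. Irf8 (0.488 ± 0.046) and Irf7 (0.417 ± 0.14) overlapped with each other, and Irf5 (0.108 ± 0.032) and Irf4 (0.00973 ± 0.0096) were lowest.

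In IFNg, Irf1 led with 276 ± 31.9 TPM and made up 69.1% ± 1.201 of the sum, which itself went from 26.1 ± 2.72 to 400 ± 42.3 TPM. Irf8 came second with 56.6 ± 8.70 TPM and Irf9 next with 35.8 ± 5.36, and neither overlapped its neighbours in the order. Irf3, at 16.2 ± 3.605 TPM, had rank 4 with 4.06% ± 0.93 of the sum, although its own level overlapped that in Ctr. Irf7 (7.78 ± 2.78) and Irf2 (6.87 ± 1.09) overlapped, and Irf5 stayed at 0.150 ± 0.040. Dexa cultures had the order of Ctr apart from Irf7 (0.527 ± 0.093, n = 3) and Irf8 (0.402 ± 0.13, n = 3), which overlapped in both groups. The same ranks came out of normalized counts per kilobase of effective length.

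**Figure D3:**
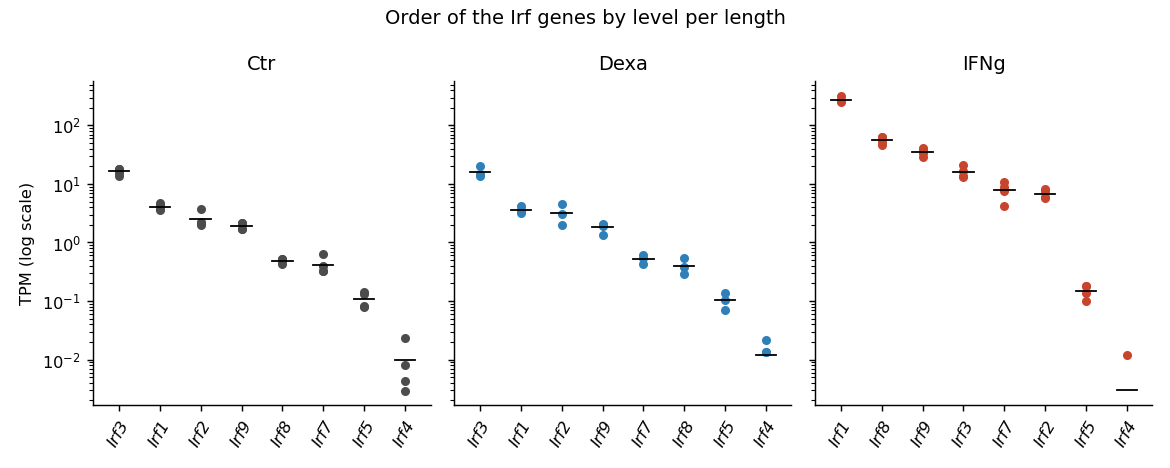
TPM (log axis) of the 8 Irf genes in Ctr, Dexa and IFNg, ordered by mean level within each group, with a point per library and a line at the mean. Values of 0 (Irf4 in Dexa and IFNg) cannot be drawn on the log axis and count in the mean, and Irf3 is first in Ctr and Dexa and at rank 4 in IFNg.

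Transcripts of Irf1 and Irf9 took different shares of their gene's reads after IFN-γ, and Irf7 had calls that the count filter bears on. Of 32 Irf transcripts that could be tested with edgeR's diffSpliceDGE, 7 changed relative to the other transcripts of their gene at an adjusted p under 0.05, where 0.206% of all 46197 transcripts did: Irf1-201, Irf1-202, Irf7-201, Irf7-202, Irf7-210, Irf9-202 and Irf9-205. Of these, Irf7-201, Irf7-202, Irf7-210 and Irf9-205 passed the filter on low counts only through the IFNg libraries, as did 10 of the 32, so that their calls follow in part from the filter. The other 3 calls, Irf1-201, Irf1-202 and Irf9-202, do not have this limit. They came from the 22 transcripts that passed the filter without the IFNg libraries, and Irf7 has no such call. In Dexa against Ctr 0 of 32 were called with a background of 0.152%, 1 having an unadjusted p under 0.05. Salmon divides reads between overlapping transcripts by estimation, and the shares carry that uncertainty on top of the spread between libraries.

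For Irf1 the change lay in the first exon. Irf1-201 and Irf1-202 have the same 987 coding bases (329 codons) and share 1872 exonic bases. They differ by 197 bases of first exon in Irf1-201, which begins just past the second RefSeq start, and by 265 bases of first exon in Irf1-202, which begins at the first start, downstream of the GAS letters shown above. Irf1-201 took 52.5%, 52.9%, 70.6% and 62.4% of Irf1 reads in Ctr replicates 1 to 4 and 3.50%, 9.54%, 8.83% and 11.6% in IFNg. Irf1-202 went the other way, from 37.8%, 39.2%, 21.1% and 28.01% in Ctr to 91.4%, 85.7%, 86.3% and 83.5% in IFNg. Neither pair of groups overlapped. Relative to the gene's other transcripts, the log2 change was -2.87 for Irf1-201 (adjusted p 5.16e-08) and 1.43 for Irf1-202 (adjusted p 0.00126), and both calls held in all 13 alternatives.

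Transcripts of both starts were assigned more reads in IFNg than in Ctr. They were summed by annotated start, a grouping made after the values were seen and therefore not tested. First-start transcripts went from 125 ± 26.2 to 20972 ± 707 normalized counts and second-start transcripts from 231 ± 51.0 to 2134 ± 822 (SD, n = 4). The first exon of Irf1-201 lies within the first intron of Irf1-202, and every base of Irf1-201 is also in another transcript. Unspliced RNA was measured too, so reads of the second start cannot be told apart there from unspliced reads of the first. First-start transcripts held 34.7% ± 8.46 of Irf1 reads in Ctr, 42.6% ± 12.6 in Dexa (n = 4) and 88.9% ± 3.15 in IFNg. In Dexa, Irf1-202 held 45.9%, 54.1%, 27.5% and 30.4% in replicates 1 to 4, which overlaps the Ctr range. The coding gene Gm17334, which lies on the opposite strand within Irf1, went from a mean of 10 to 503 estimated counts, not scaled for depth. The strand setting of the counting was not stated in the sources used here, and reads of the pair may not be separable.

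For Irf9, Irf9-203 held 62.2%, 50.01%, 71.2% and 79.3% of the reads in Ctr and 15.3%, 8.82%, 8.01% and 11.2% in IFNg. It begins upstream of Irf9-202, which lies wholly inside it, and overlaps the end of Rnf31 on the same strand by 123 bases. Irf9-202 went from 14.8%, 30.1%, 0% and 0% in Ctr to 57.6%, 56.5%, 54.1% and 70.9% in IFNg, without overlap (log2 change 2.35, adjusted p 0.0115). This call was lost without Ctr replicate 3 (adjusted p 0.116), without Ctr replicate 4 (0.108) and among transcripts with at least 50 counts (0.257). Irf9-205, which starts farther downstream, took 11.1%, 20.3%, 22.5% and 1.85% in IFNg and at most 1.09% in Ctr. Its call (adjusted p 0.00445), which follows in part from the filter, was lost without Ctr replicate 1 (0.0652) and among transcripts with at least 50 counts (0.153). Irf9-203 itself did not pass the test (adjusted p 0.133). The coding sequences differ, with 465 codons in Irf9-203, 399 in Irf9-202 and 417 in Irf9-205.

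For Irf7, most reads in Ctr fell to Irf7-213, a model without any spliced intron that covers chr7:141263184-141266423 as a single exon of 3240 bases. Its share was 73.7%, 68.8%, 76.7% and 74.8% in Ctr replicates 1 to 4 and 20.4%, 18.6%, 16.5% and 18.5% in IFNg, although the test did not call it (adjusted p 0.305). Its own reads went from 55.8 to 108 estimated counts on average, not scaled for the depth of the libraries. The spliced coding transcript Irf7-203 (425 codons) held 24.3% ± 5.23 of Irf7 reads in Ctr and 16.5% ± 4.97 in IFNg, and was not called. Other spliced coding transcripts, Irf7-201 (457 codons) and Irf7-202 (426 codons), were at 0 in 3 of 4 Ctr libraries each, with 4.53% and 2.29% in the other one. They reached 25.8% to 31.4% and 17.9% to 24.8% in IFNg. They had adjusted p of 6.55e-05 and 0.00172. Irf7-210, which retains an intron, was at 0 in all 4 Ctr libraries and at 11.1% to 13.2% in IFNg (adjusted p 7.43e-04). Irf7-201, Irf7-202 and Irf7-210 passed the filter on low counts only through the IFNg libraries, so that these p-values follow in part from the filter. Taken by annotated type, retained-intron models held 74.0% ± 4.06 of Irf7 reads in Ctr, 79.1% ± 5.12 in Dexa (n = 3) and 32.7% ± 3.002 in IFNg.

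No transcript of the other Irf genes was called. Irf8-201, which begins at the promoter shown above, held 81.5% ± 6.96 of Irf8 reads in Ctr and 89.4% ± 0.82 in IFNg, and Irf8-205 from the second start held 1.55% in IFNg. Irf8 lies within Gm20388, a much longer model on the same strand, whose estimated counts averaged 5031 in Ctr and 3440 in IFNg. These counts were not scaled for depth, so no change of Gm20388 is read from them. Reads in genes were 30945954 to 52074655 in Ctr and 26522516 to 35260937 in IFNg. For Irf3, the retained-intron models held 41.5% ± 3.42 of the reads in Ctr and 38.3% ± 5.86 in IFNg. Irf3 overlaps Bcl2l12 on the opposite strand by 1065 bases, and with the strand setting not stated, reads of the pair may not be separable. For Irf2, Irf2-201 held 65.4% in Ctr and 60.8% in IFNg.

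**Figure D4:**
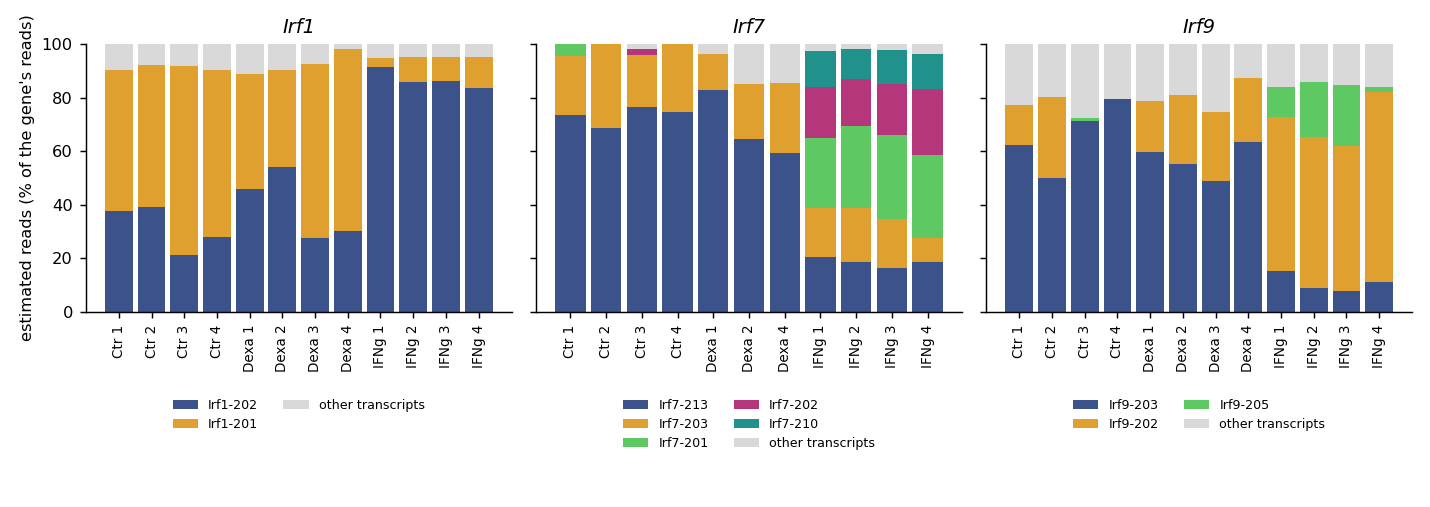
Estimated reads of the named transcripts as a percentage of their gene's reads in each library, for Irf1 and Irf9 in all 12 libraries and for Irf7 in the 11 complete ones, with all other transcripts in grey. Irf1-202, Irf9-202 and the pair Irf7-201 and Irf7-202 take larger shares in each IFNg library than in any Ctr library.

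The genes whose levels ran most like those of each Irf gene over the 11 complete libraries were sought among all genes tested, by Pearson's r of log2(normalized count + 1). For Irf1 these included Irf8 (r = 0.999) and Gm49730 (0.999), for Irf8 Irf1, Gbp10 and Gbp2 (all 0.999), and for Irf9 Strc, Trim21 and Igtp (all 0.998). For Irf7 they were Zfp521, Olfr753-ps1 and Ddx58 (all 0.993), and for Irf2 they included Tut7 (0.983) and Ly6e (0.982). Gm49730, Olfr753-ps1 and Strc were at 0 in every Ctr library. Such values rest on the step between the IFNg libraries and the rest. Irf3 had lower values, with Vars2 (0.962), Abl1 (0.956) and Dele1 (0.955), and Irf5 had Fubp1 at 0.921. The 11 libraries are not independent points here, since those of the same replicate number deviated together.

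Around the Irf genes, the receptor and JAK-STAT arm moved with IFN-γ in part. Of its 15 genes, 9 rose, 1 fell and 5 did not pass, with a median log2 fold change of 0.69 against -0.02 over all genes tested, of which 8.02% rose and 12.8% changed in either direction. Among the largest changes, Usp18, an inhibitor of type I interferon signalling, rose by 6.17 ± 0.23, Socs1, a JAK inhibitor, by 6.08 ± 0.17 and Stat2, which encodes a partner of IRF9 in ISGF3, by 3.29 ± 0.12 on the log2 scale. Ifngr1, a chain of the IFN-γ receptor, fell by 0.28 ± 0.09 (DESeq2 adjusted p 0.0225), which edgeR did not call (0.0858), nor did 4 of the fits that left out a library. The adjusted p of Ifngr1 ranged from 0.00814 to 0.108 over 18 alternatives.

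Of the nucleic acid sensing arm, which leads to IRF3 and IRF7, 14 of 16 genes were tested, 5 rose and 9 did not pass, with a median of 0.53 and against the same 8.02% of all genes. Ifih1 (6.19 ± 0.34), Ddx58 (3.597 ± 0.19) and Tlr3 (3.55 ± 0.47), which encode RNA sensors, and the adaptor gene Myd88 (1.74 ± 0.14) had the largest log2 fold changes. The 9 interferon ligand genes examined were not tested, and none of them reached a mean of 1 normalized count in any group. Among 7 genes of known Irf partners, 5 were tested and 2 rose: Batf2, a partner of IRF1, went from 2.37 ± 1.199 to 1530 ± 174 normalized counts and Batf3, a partner of IRF4 and IRF8, from 9.65 ± 10.3 to 77.6 ± 14.3. Both passed the filter on low counts only through the IFNg libraries, and of the 3 partners that passed without them 0 were called.

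Of the Irf1 targets, 9 of 10 were tested and all 9 rose, where 8.02% of all genes did, with a median log2 fold change of 7.20. All 9 would have passed the filter without the IFNg libraries. These lists were chosen with earlier results of these data known, so their counts describe the genes and do not test whether Irf factors acted on them. Nos2, the inducible nitric oxide synthase gene, was too low to be tested, at 4.40 normalized counts in Ctr and 1.28 in IFNg. Gbp2, a guanylate-binding protein gene, went from 94.5 ± 12.3 to 109018 ± 6547 normalized counts, Nlrc5, the activator of MHC class I genes, from 21.8 ± 3.65 to 15070 ± 1245, the immunoproteasome gene Psmb9 from 25.7 ± 5.55 to 6974 ± 586, and Cd274, encoding PD-L1, from 8.15 ± 2.40 to 1773 ± 320. Of the ISRE target genes, 10 of 12 were tested and 9 rose, with a median of 6.72. Isg15, Ifit1, Mx1, Oas1a and Ifi44 passed the filter only through the IFNg libraries, so that this count and median follow in part from the filter. Among the 5 that passed without them, 4 rose, with a median of 3.31: Ifit3 went from 12.3 ± 4.42 to 5285 ± 1529 normalized counts, and Rsad2, Cmpk2 and Ifit2 rose by 4.59 ± 0.17, 3.31 ± 0.18 and 2.98 ± 0.20 on the log2 scale. Mx2, the fifth, had a log2 fold change of 0.95 (DESeq2 adjusted p 0.165). In the same libraries, those ligand genes of type I interferon that were examined were at or near 0. Other type I interferon genes were not examined, and the part of secreted interferon was not tested. In Dexa against Ctr, DESeq2 called 0 genes of these 5 lists, of which 15, 14, 5, 9 and 10 genes were tested. It called 0.547% of all genes there, so a count of 0 is not particular to these lists. Their medians lay between -0.12 and 0.14.

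**Figure D5:**
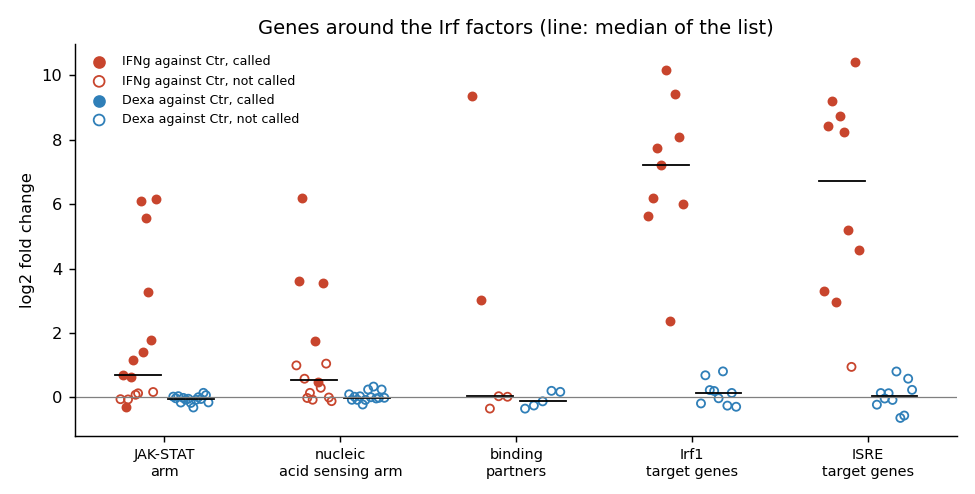
Log2 fold change of each tested gene of 5 lists around the Irf factors, in IFNg against Ctr (red) and Dexa against Ctr (blue), filled where the DESeq2 adjusted p was under 0.05, with a line at the median of each list. Red medians are 7.20 for Irf1 targets and 6.72 for ISRE targets, of which 5 of 10 passed the filter on low counts only through the IFNg libraries. No blue point is filled, where DESeq2 called 0.547% of all genes in Dexa against Ctr.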

How the data were processed

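Total RNA of cultured OPCs was sequenced in 12 libraries (4 Ctr, 4 Dexa, 4 IFNg), depleted of ribosomal RNA, so that unspliced RNA is also measured. The submitters' processing notes name Salmon 0.8.2 and STAR, and the authors deposited, per library, an estimated count, a TPM value and an effective length for each transcript, on mm10/GRCm38. Transcript identifiers matched GENCODE M21. The strand setting is not given in the sources used here. The authors' 3 DESeq2 tables, which hold mean counts, fold changes and p-values of their own comparisons, were not used.

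Estimated counts were summed per gene and rounded. A gene entered the test when 4 or more libraries had 10 or more counts. The test was that of DESeq2 1.42.0 (Wald test on the group, no covariate, no shrinkage, Benjamini-Hochberg adjustment over all genes tested) run in R 4.3.3. Dexa replicate 3 was left out because its table is incomplete, and its values are given only for genes it lists whole. Normalized counts are counts divided by DESeq2 size factors, and fold changes are those of the fit. Transcript shares were tested with diffSpliceDGE of edgeR 4.0.16. Alternatives were edgeR's quasi-likelihood test, a block for the replicate number, TMM factors, no filter, only the groups compared, each library left out, all 12 libraries over the genes all tables list whole and, for transcripts, at least 50 counts. The scripts' tests were tried on simulated data. The Irf genes and all gene lists were chosen with earlier results of these data known. Named from each list were the 4 called genes with the largest change in IFNg against Ctr and called genes of the opposite direction, besides the 3 markers with the highest levels in a group and other markers named after their values were seen. Some genes that this rule names are not reported here.

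Replicate numbers were taken to pair the libraries. Deviations from the group means correlated at 0.404 to 0.722 between libraries of the same number and at -0.614 to 0.495 between others. These ranges overlapped, and the highest of the others was between Ctr replicate 3 and Dexa replicate 4. The replicates came from different litters per the methods; the titles of replicates 3 and 4 begin with the same unexplained number. Replicates differed by more than sampling noise (chi-square per degree of freedom 22.0 to 223). The lowest values were those between replicates 3 and 4, at 24.3 in Ctr and 22.0 in IFNg.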

Additional observations from a re-analysis of the deposited data

Results flagged for a closer look

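In 28 groups of 4 libraries examined for a library far from the rest, over Irf gene counts and shares of transcript classes, 1 value was set apart, where chance gives about 1 in 20. Irf7 stood at 80.6 normalized counts in Ctr replicate 3, against 48.9 to 53.3 in the other 3 Ctr libraries, a gap of 0.861 of the whole range, above Dixon's critical value for 4 libraries. Without this library the log2 fold change of Irf7 in IFNg against Ctr was 3.69, against 3.50 with it.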

How the results depend on the processing

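The 5 Irf genes called in IFNg against Ctr and against Dexa were counted as 5 under each alternative that tests all 7, and the Irf genes called in Dexa against Ctr as 0. With the replicate number as a block, the counts were 5, 0 and 5 in DESeq2 and in edgeR, and the block changed no call of an Irf gene or Irf transcript. Log2 fold changes in IFNg against Ctr moved within 5.98 to 6.08 for Irf1, 6.73 to 6.86 for Irf8, 4.05 to 4.21 for Irf9, 3.35 to 3.70 for Irf7 and 1.11 to 1.25 for Irf2. Counts over all genes moved more. IFNg against Ctr had 2302 calls in DESeq2, 1513 in edgeR, and with the replicate block 5238 in DESeq2 and 5606 in edgeR. Dexa against Ctr had 98, 22, 460 and 282, and IFNg against Dexa had 2345, with 5662 and 6045 under the block. Leaving out libraries gave 59 (without Dexa replicate 2) to 112 calls in Dexa against Ctr.

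In Dexa against Ctr, differences near 0 changed sign without any call: with the replicate block Irf7 was 0.089 in DESeq2 and 0.095 in edgeR. Leaving out 1 library at a time gave -0.21 to 0.10 for Irf3, -0.34 to 0.20 for Irf5, -0.187 to 0.087 for Irf7 and -0.150 to 0.083 for Irf9, and in IFNg against Dexa -0.31 to 0.015 for Irf3. The causes were not tested. Irf transcripts with a changed share numbered 7, and 4 with at least 50 counts. Leaving out libraries gave 3 to 7, the 3 whenever an IFNg library was missing, since transcripts absent from Ctr then cannot reach 4 libraries and are not tested. Low counts limit what can be said of Irf4 and Irf5.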
